A study of Drosophila melanogaster with 12 samples.

Results

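The cytosolic ribosomal protein genes are described here as they were measured in heads of Drosophila melanogaster fed pentylenetetrazole. A probe was counted as a member when the gene symbol of the array annotation, or the current symbol of that gene, began with RpL or RpS, with RpLP0 included, and mitochondrial ribosomal protein genes (mRp) left out. This gave 36 probes of 23 genes among 13824 probes on the array, of which 7558 carried 1 gene name. The large subunit (RpL) had 26 probes of 15 genes and the small subunit (RpS) 10 probes of 8 genes. The current annotation holds 92 symbols beginning with RpL or RpS, so that the genes measured are a minority of the family.

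The PTZ flies were Oregon-R wild type males, unmated and 3 to 4 days old at the start, kept 30 to a vial on food with 8 mg/ml of pentylenetetrazole (PTZ), a convulsant drug that blocks chloride channels gated by GABA. Their controls were males of the same strain and age on normal food (NF). RNA of pooled whole heads of both was hybridised to the same 2-colour cDNA array, with 4 arrays for each of 3 times of treatment, namely 12 hrs, 2nd day and 7th day. The methods name the 4 arrays of a time point biological replicates. Replicates 1 and 2 had PTZ in Cy5 (forward arrays), and replicates 3 and 4 had the dyes exchanged (swapped arrays). For replicates 3 and 4 of 12 hrs and replicate 2 of the 2nd day the labels contradict themselves on treatment or dye, and their titles and treatment protocols were followed. Arrays of 0 hr were not analysed here.

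Each value is a log2 ratio normalised by the authors. The sources do not say whether the ratios of the swapped arrays had already been turned to PTZ over NF before deposit. Values are therefore given with the swapped arrays multiplied by -1 ("turned") and in the other reading as deposited, and the sign of a mean over all 4 arrays is not settled. On the forward arrays the ratio is that of PTZ to NF either way, with any dye effect left in it. For replicate 2 of the 2nd day this rests on its title and treatment protocol. In the turned values a log2 ratio above 0 means a higher signal in PTZ heads, if the deposited ratio is Cy5 over Cy3 on every array. The study describes the genes it called with SAM, a permutation method, as lower in PTZ heads. With the swapped arrays turned, SAM calls were mostly higher at 12 hrs, which is the opposite direction, mostly lower on the 2nd day, and 1 each way on the 7th day. As deposited most SAM calls were lower at each time. A ratio from whole heads cannot tell fewer cells of a type from less RNA per cell.

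The ribosome is the particle that translates mRNA into protein. Its small subunit reads the message, and its large subunit joins the amino acids. Most of its proteins are made in equal numbers from strongly expressed genes that are usually regulated together, and in flies loss of 1 copy of many of these genes gives the Minute phenotype of slow development and short bristles. Several members have a near copy in the fly genome that was not among the named probes, such as RpS15Aa for RpS15Ab, RpS28a for RpS28b and RpL34b for RpL34a. cDNA probes of such pairs may take up signal of the other copy, which cannot be told apart here.

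Ribosomal protein probes were measured more often than the average named probe. A value was present for 61.3% of the pairs of member probe and array, against 46.1% for all probes with 1 gene name. Of the 36 probes 7 had a value on all 12 arrays, 4 on 1 array and 1, that of RpS19b, on 0. At least 3 of 4 arrays were needed for the test, which left 22 member probes for 12 hrs (17 RpL and 5 RpS), 22 for the 2nd day (17 and 5) and 17 for the 7th day (13 and 4). These were among 4642, 5279 and 4316 probes in the order of time. The 7th day differed most between arrays, with member values on 31, 14, 26 and 12 probes for replicates 1 to 4, and its replicate 4 had a median over all probes of 0.64 turned.

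No ribosomal protein probe passed the test over the 4 arrays of a time point. With limma and Benjamini-Hochberg adjustment over all probes, 0 members were higher and 0 lower at an adjusted p under 0.05 at each of the 3 times, in either reading. The background was 0% in both directions at each time with the swapped arrays turned. As deposited it was 0% for 12 hrs and 0.0189% on the lower side for the 2nd day. For the 7th day it was 0.0463% on the higher and 0.626% on the lower side. What the family showed is therefore given as values and counts.

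At 12 hrs the turned values of the family lay mostly above 0. The means of 20 of 22 member probes were above 0, beside 64.4% of all probes tested. The median of the members was 0.20, against 0.068 for all probes, and 0.12 with the median of neighbouring probes subtracted. An unadjusted p under 0.05 on the higher side was reached by 7 members (background 11.9%) and 11 had a value above 0 on every array that measured them (background 22.5%). As deposited this was not seen. The median was then -0.019, against 0.00025 for all probes, 10 of 22 means were above 0 (background 50%), and 0 members had an unadjusted p under 0.05 (background 1.81% higher and 1.53% lower). The forward arrays alone gave a median of 0.21, against 0.079 for all probes, with 20 of 21 means above 0 (background 64.7%). SAM called 10 of 22 members higher at a false discovery rate of 0.2 with the swapped arrays turned (background 22.5%), among them RpLP0, RpL3, RpL15, RpL17 and RpL29, and 0 as deposited.

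**Figure D1:**
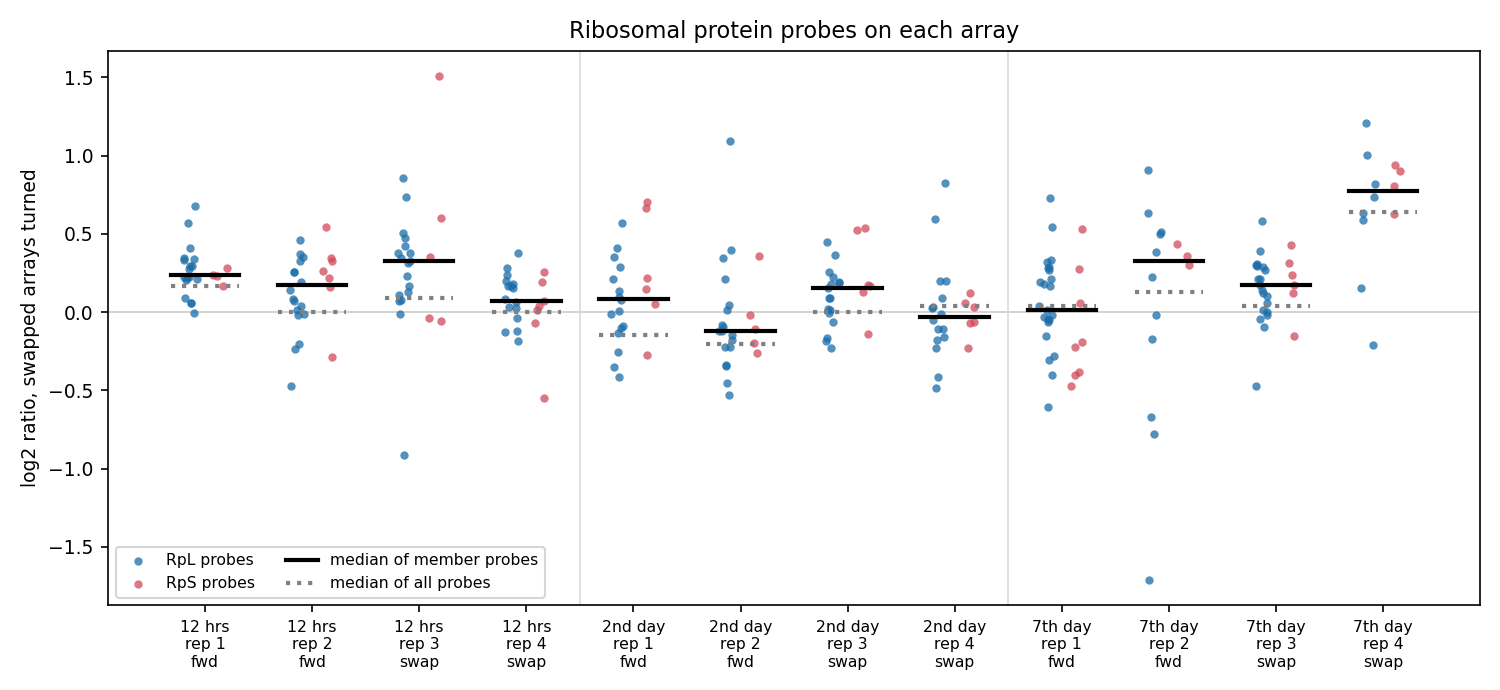
Log2 ratios (swapped arrays turned) of RpL probes (blue) and RpS probes (red) on each of the 12 arrays, by time point, replicate and dye orientation. Solid bars are the median of the member probes and dotted bars that of all probes. The solid bar lies above the dotted one on 10 of 12 arrays, and not on replicate 4 of the 2nd day and replicate 1 of the 7th day.

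The family stood above the median of its own array on most arrays. At 12 hrs the median of the member probes was 0.23, 0.18, 0.33 and 0.071 on replicates 1 to 4, turned, against array medians of 0.16, 0.0010, 0.091 and 0.0015. On the 2nd day it was 0.086, -0.12, 0.15 and -0.034, against -0.14, -0.20, -0.0015 and 0.037. On the 7th day it was 0.016, 0.33, 0.17 and 0.77, against 0.040, 0.13, 0.042 and 0.64. The distance of the members to the array median was thus between -0.071 and 0.23. Each of these comparisons turns its sign on swapped arrays in the other reading.

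Among the large subunit genes at 12 hrs, RpLP0 was the most even. It encodes the base of the ribosomal stalk, to which the translation factors bind. Its turned values were 0.29, 0.37, 0.47 and 0.38, all 4 above 0 and close together, and its mean was 0.38 ± 0.074 (SD, n = 4), a ratio of 1.3-fold with a 95% confidence interval of 0.18 to 0.58 on the log2 scale. It had an unadjusted p = 0.0022 and an adjusted p = 0.237 in limma. As deposited its mean was -0.047 ± 0.44. The 2 spots behind its value on replicate 3 were at -0.696 and -0.252 as deposited, farther apart than its 4 turned array values.

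RpL15 and RpL17, both core proteins of the large subunit, had a value above 0 on every array of 12 hrs. RpL15 was at 0.33, 0.26, 0.37 and 0.15, with a mean of 0.28 ± 0.097 (n = 4) and an adjusted p = 0.284 in limma. RpL17 was at 0.20, 0.26, 0.38 and 0.18, with a mean of 0.26 ± 0.089 and an adjusted p = 0.292. RpL3, whose protein lies close to the site of peptide bond formation, had 0.092, 0.46 and 0.34 on its 3 arrays, and a mean of 0.30 ± 0.19. For these 3 genes the means as deposited were 0.015, -0.026 and 0.069.

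RpL23 was the only member that passed the test on the forward arrays of 12 hrs. Its protein is part of the large subunit. It was at 0.68 and 0.35 on the forward arrays, with a mean of 0.52 and an adjusted p = 0.0305 (limma, 2 arrays, background 1.42% higher and 1.3% lower). On the swapped arrays its turned values were 0.16 and -0.18. The turned values of the orientations, of 2 arrays each, did not overlap, and the share of all probes with such a gap was not counted. The mean of RpL23 over 4 arrays was 0.25 ± 0.36 turned and 0.26 ± 0.35 as deposited. Its replicate 1 rests on a pair of spots at 0.39 and 0.97. On the forward arrays of 12 hrs limma gave all probes the same variance. The p value there depends on the mean alone, not on how far the 2 arrays of a probe agree.

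At 12 hrs the 2 means above that of RpLP0, of RpS15Ab probe 2 and RpL32 probe 9, came with a single array far above the rest. RpS15Ab probe 2, for a small subunit protein, was at 0.24, 0.16, 1.51 and 0.19 and had the highest mean of all members, 0.52 ± 0.66. The 2 spots behind its replicate 3 were at -2.32 and -0.69 as deposited. RpS15Ab probe 1, of the same gene, was at 0.23, 0.22, 0.35 and 0.015 on the same arrays. RpL32 probe 9 was at 0.30, 0.33, 0.86 and 0.28, with a mean of 0.44 ± 0.28. Its spots on replicate 3 were at -0.305 and -1.409 as deposited. RpS12 probe 1, next below RpLP0, was at 0.17, 0.26, 0.60 and 0.26, with a mean of 0.32 ± 0.19. For each of these probes replicate 3 was the highest array, and all 4 values were above 0.

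At the low end of 12 hrs, RpL27 had the lowest mean, -0.16 ± 0.51, from 0.22, 0.013, -0.91 and 0.027. Its value on replicate 3 rests on 1 spot, and the other 3 arrays were above 0. RpL32 probe 1 was at -0.0065, -0.24, 0.33 and -0.13, with a mean of -0.011 ± 0.24. The next lowest were RpS28b at 0.074 ± 0.22 (n = 3), RpL39 probe 1 at 0.082 ± 0.087 and RpL7-like probe 2 at 0.10 ± 0.16.

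**Figure D2:**
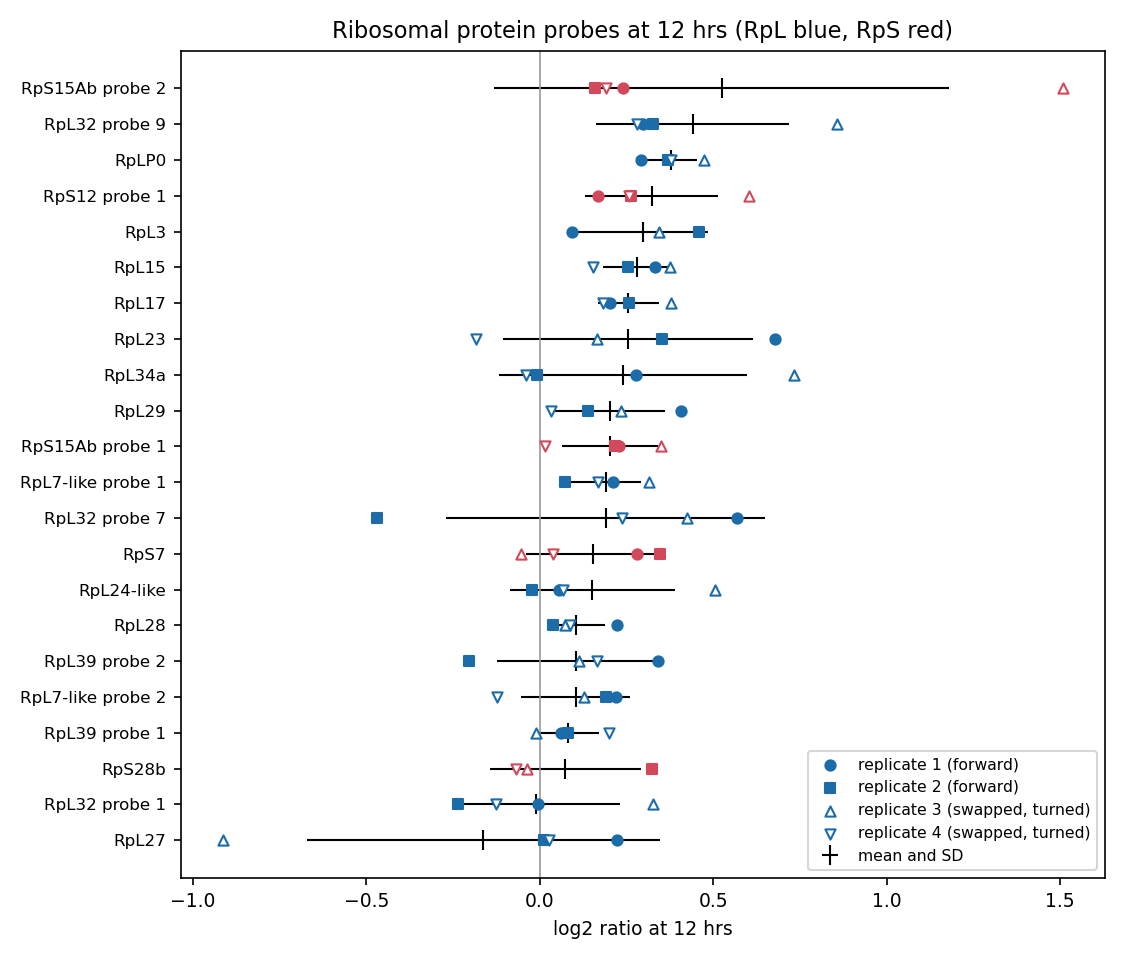
Log2 ratios at 12 hrs of the 22 member probes tested, ordered by mean, with RpL in blue and RpS in red. Filled marks are forward arrays, open marks are swapped arrays turned, and the vertical tick and bar give the mean and SD of 3 or 4 arrays. RpLP0 has its 4 values between 0.29 and 0.47, while RpS15Ab probe 2, RpL32 probe 9 and RpL27 each have 1 open mark of replicate 3 far from the rest.

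Marker genes of the tissues of the head were also mostly above 0 at 12 hrs, turned, beside 64.4% of all probes, whose median was 0.068. Of 3 photoreceptor probes tested 3 had a mean above 0 (median 0.49), of 3 muscle probes 3 (median 0.36), of 5 head fat body probes 4 (median 0.33) and of 3 neuronal probes 3 (median 0.25). The head fat body probes were those of Lsp2 (0.35), apolpp (0.33 and 0.073) and the yolk protein genes Yp1 (-0.18) and Yp2 (0.41). Whether Yp1 and Yp2 mark the fat body of these males was not tested. The glial glutamine synthetase gene Gs2 was at 0.16, and the single testis probe tested at 0.058. As deposited the medians were 0.018 for photoreceptor, -0.13 for muscle, -0.11 for head fat body and -0.13 for neuronal probes, against 0.00025 for all probes. On the forward arrays they were 0.59, 0.24, 0.054 and 0.11 in that order, against 0.079 for all probes. The labelled tissue is the whole head, and probes of photoreceptors, neurons and fat body were measured in it. The part of these cell types in the values of the ribosomal protein genes was not tested.

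On the 2nd day the family lay near 0 while most probes lay below it. With the swapped arrays turned 13 of 22 members had a mean above 0 (background 32%), and the median was 0.017, against -0.078 for all probes. It was 0.095 with each array centred on its median and 0.0998 with the median of neighbouring probes subtracted. Without replicate 3 the member median was -0.017, and without any other array it lay between 0.0052 and 0.051. An unadjusted p under 0.05 was reached by 0 members (background 1.82% higher and 7.5% lower). As deposited 9 of 22 were above 0 (background 29.5%), with a median of -0.024, against -0.10 for all probes. On the forward arrays alone the member median was -0.029, against -0.20 for all probes, and 7 of 21 means were above 0 (background 25.1%). The median of the members was thus above that of all probes in both readings and on the forward arrays, which share arrays. SAM called 1 member lower turned, RpL7-like probe 1 (background 26.7%). As deposited it called 9 of 22 lower (background 50%) and 1, RpL7-like probe 2, higher (background 4.03%).

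For the 2nd day the forward arrays alone gave adjusted calls in both directions, 2 of 21 members higher (background 7.43%) and 2 of 21 lower (background 33.3%). RpS7, a small subunit protein gene, was the highest, at 0.67 and 0.36, with a mean of 0.51 and an adjusted p = 0.000887 in limma on these 2 arrays. On the swapped arrays it was at -0.14 and 0.059 turned, below both forward values, a gap whose share over all probes was not counted. The mean of RpS7 over 4 arrays was 0.24 ± 0.35 turned and 0.28 ± 0.31 as deposited. RpL32 probe 1 was called lower, at -0.26 and -0.53 on the forward arrays and 0.19 and -0.11 on the swapped arrays turned, with a forward mean of -0.39 (adjusted p = 0.0129 in limma).

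The other 2 calls were the 2 probes of RpL7-like, and they went opposite ways. The yeast counterpart of this gene acts in the assembly of the large subunit, not in the finished ribosome. Probe 1 was at -0.42 and -0.45 on its 2 forward arrays, with a mean of -0.43 (adjusted p = 0.0053 in limma). Probe 2 was at 0.35 and 0.34, with a mean of 0.35 (adjusted p = 0.0274). The spread between the arrays of either probe was far below the distance between the probes. Turned, the swapped arrays of probe 1 were at 0.19 and -0.11, and those of probe 2 at -0.16 and -0.18. At 12 hrs the forward values were 0.21 and 0.072 for probe 1 and 0.22 and 0.19 for probe 2, which overlap. The medians of the 100 nearest probes in the order of the array were -0.23 and -0.17 around probe 1 on those arrays, and 0.062 and -0.15 around probe 2.

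Over all 4 arrays the highest turned means of the 2nd day were RpS7 at 0.24, RpL3 at 0.21 ± 0.18 (n = 3), RpL34a at 0.18 ± 0.17, RpS28b at 0.15 ± 0.30 and RpLP0 at 0.12 ± 0.41 (n = 3). RpL34a was at 0.41 and 0.21 on the forward arrays and 0.011 and 0.091 on the swapped arrays, and with RpL3 was 1 of 2 members above 0 on every array (background 3.49%). The lowest were RpL7-like probe 1 at -0.20 ± 0.30, RpL32 probe 1 at -0.17 ± 0.30, RpL39 probe 1 at -0.17 ± 0.22 (n = 3), RpL32 probe 9 at -0.15 ± 0.24 and RpL39 probe 2 at -0.097 ± 0.093. RpL39 encodes a very small protein of the exit tunnel, and its 2 probes were both below 0 on every array that measured them (background 15.8%). As deposited the members with an unadjusted p under 0.05 were RpL23 at -0.32 ± 0.21 (background 17.8% lower) and RpL7-like probe 2 at 0.26 ± 0.10 (background 3.07% higher), with adjusted p values of 0.198 and 0.204 in limma.

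**Figure D3:**
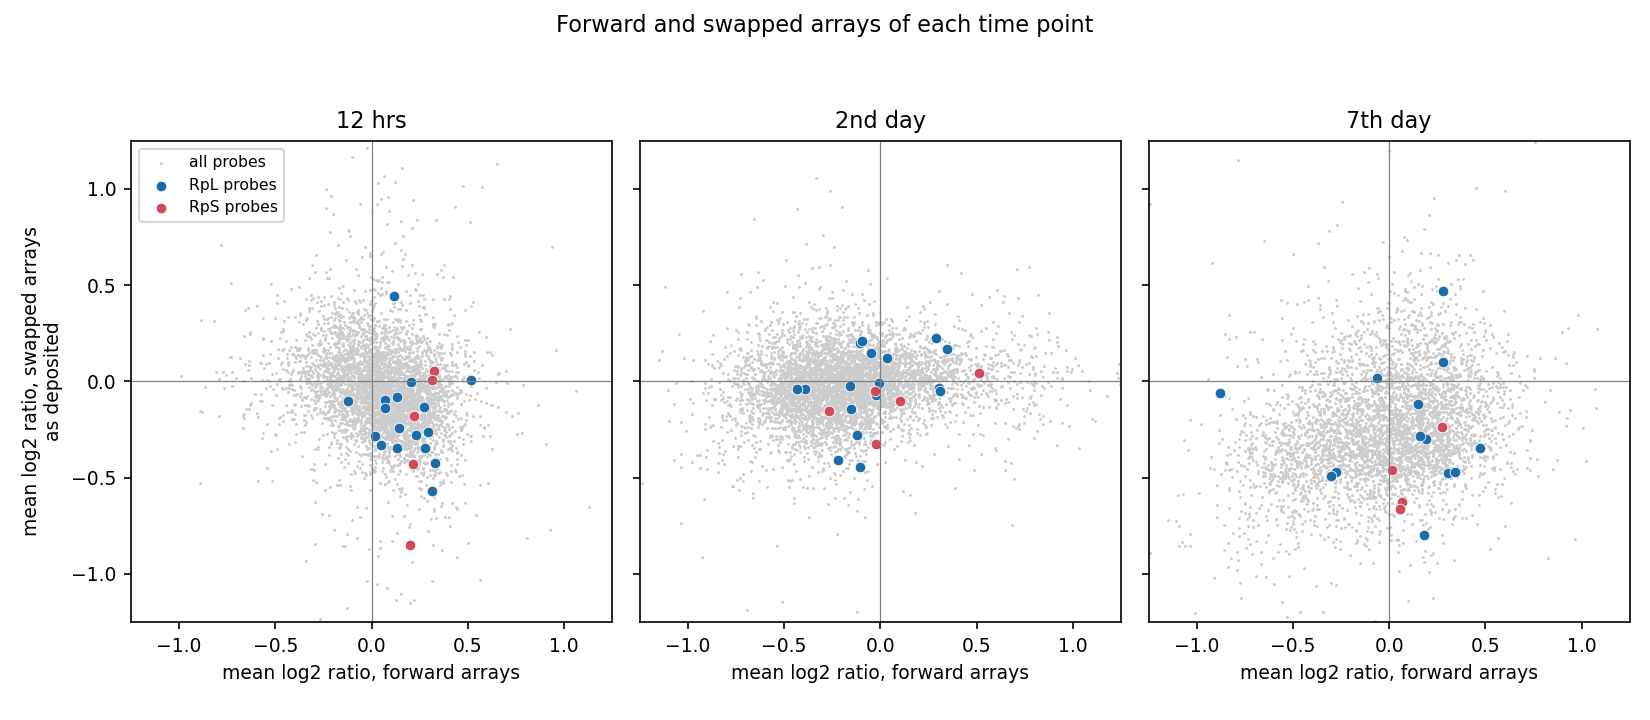
Mean log2 ratio of the forward arrays (horizontal) against that of the swapped arrays as deposited (vertical) at each time, for RpL probes (blue), RpS probes (red) and all probes with a value on at least 3 arrays (grey; a few lie beyond the axes). At 12 hrs most members sit right of 0 and below 0, on the 2nd day they spread along the horizontal axis with RpS7 at 0.51, and on the 7th day most sit below 0 on the swapped arrays.

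On the 7th day 15 of 17 members had a mean above 0 turned (background 79.6%), and 3 were above 0 on every array that measured them (background 14.4%). The median was 0.23, against 0.16 for all probes, and it was 0.45 without replicate 1 and 0.14 without replicate 4. With each array centred on its median it was 0.072, and with the median of neighbouring probes subtracted 0.076. As deposited 11 of 17 were below 0 (background 69.5%), with a median of -0.068, against -0.13 for all probes. The forward arrays gave 11 of 14 means above 0 (background 65.8%), a median of 0.16, against 0.11 for all probes, and 0 calls, also at an unadjusted p under 0.05 (background 1.29% higher and 0.917% lower). SAM called 0 members in either reading (background 8.18% lower as deposited). The shares of the members on this day were near those of all probes.

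RpL15 was the highest member of the 7th day, at -0.15, 0.51, 0.39 and 1.21, with a mean of 0.49 ± 0.56, an unadjusted p = 0.0455 (background 1.83%) and an adjusted p = 0.964 in limma. RpL27 was next at 0.040, 0.91, 0.10 and 0.59, with a mean of 0.41 ± 0.41. RpL28 was at 0.18, 0.50, 0.31 and 0.63, with a mean of 0.41 ± 0.20. Both were above 0 on all 4 arrays. RpL17 at 0.39 ± 0.51 and RpS7 at 0.36 ± 0.45 followed. For all of these but RpL27, replicate 4 was the highest array.

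The lowest means of the 7th day were those of 4 probes of RpL32 and of RpLP0-like. RpL32 probe 8 was at -0.045, -1.71 and 0.061 on its 3 arrays, with a mean of -0.57 ± 0.99 turned and -0.61 ± 0.96 as deposited. The mean as deposited had an unadjusted p = 0.0144 and an adjusted p = 0.366 in limma (background 9.06% lower), and rests on replicate 2. RpL32 probe 5 was at -0.046 ± 0.61, RpL32 probe 2 at 0.027 ± 0.25 and RpL32 probe 6 at 0.029 ± 0.63 (n = 3 each). RpLP0-like, whose yeast counterpart also acts in assembly of the large subunit, was at 0.14 ± 0.17 (n = 3).

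RpL32, long used as a reference gene in flies under the name rp49, had 10 of the 36 probes, and these did not read alike. Where 2 or more of its probes had a value on an array, the distance between the highest and the lowest had a median of 0.77 over 12 arrays, with a range of 0.27 to 2.10. The same distance had a median of 0.12 over 12 arrays for the 2 probes of RpS15Ab, 0.19 over 9 arrays for RpL39 and 0.24 over 8 arrays for RpL7-like. These genes have 2 probes each, and a distance over more probes is wider for that reason alone. As an SD, the spread of RpL32 probes was above that of the means of the other member genes on 7 of 11 arrays with 3 or more probes. It was 0.78 on replicate 2 of the 7th day, against 0.28 for the other genes, and 0.71 on replicate 2 of the 2nd day, against 0.22. RpL32 probe 3 stood out on the 2nd day at 1.09, with 0.82 turned on replicate 4, and had no value on the other arrays of the day.

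**Figure D4:**
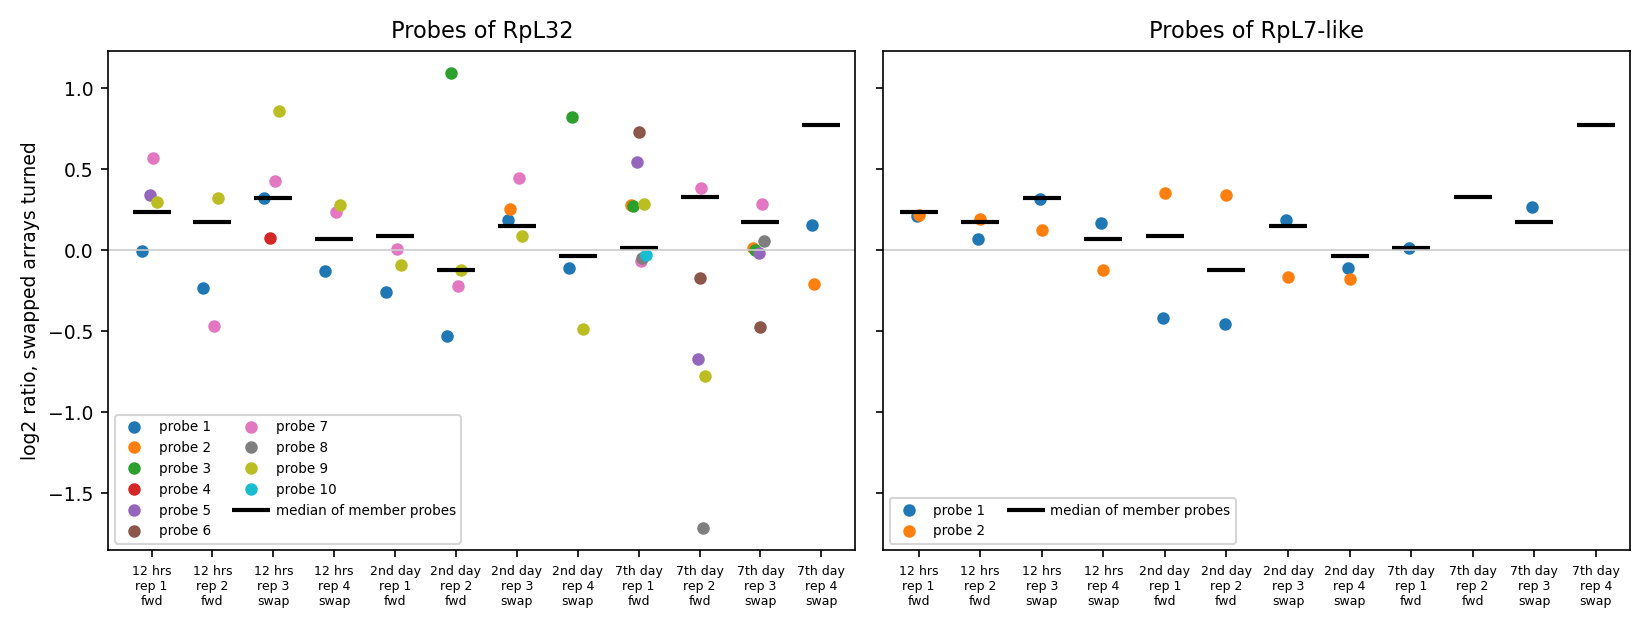
Log2 ratios (swapped arrays turned) on the 12 arrays of the 10 probes of RpL32 (left) and the 2 probes of RpL7-like (right), with the median of all member probes as black bars. RpL32 probes spread from -1.71 to 0.39 on replicate 2 of the 7th day, and the 2 RpL7-like probes lie on either side of 0 on replicates 1 and 2 of the 2nd day.

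Turned and over the 4 arrays of a time, the difference between the large and the small subunit was small against its spread, except on the 2nd day. There this was not so in every setting. The median of RpL probes minus that of RpS probes was -0.010, -0.18, -0.025 and 0.083 on the arrays of 12 hrs, with a mean of -0.034 ± 0.11 (SD, n = 4). On the 2nd day it was -0.10, -0.016, -0.084 and -0.087, with a mean of -0.073 ± 0.039, below 0 on 4 of 4 arrays turned. On the 7th day it was 0.24, -0.053, -0.098 and -0.12, with a mean of -0.0065 ± 0.17. For 12 hrs and for the 7th day the mean was smaller than its SD. On the 2nd day the difference was also smaller than its SD with probes of a gene averaged (-0.080, SD 0.15). The same held with neighbouring probes subtracted (-0.079, SD 0.11). For the 7th day the difference was larger than its SD in 2 other settings. These were as deposited (0.22, SD 0.12) and turned without replicate 1 (-0.16, SD 0.033). The sign on the swapped arrays of the 2nd day changes in the other reading. The number of RpS probes behind each array was 3 to 5, so that 1 probe can move these medians.

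Taken over the means of each time point, the medians of the RpL and RpS probes were 0.19 and 0.20 for 12 hrs, 0.0024 and 0.10 for the 2nd day, and 0.22 and 0.30 for the 7th day, turned. As deposited they were -0.026 and 0.020, -0.0081 and -0.040, and -0.036 and -0.25. The order of the subunits on the 2nd and 7th day thus differed between the readings. The difference of the turned medians, -0.010 for 12 hrs, was -0.12, 0.023, -0.093 and -0.065 without replicates 1 to 4 in turn. For the 2nd day it was -0.0995, with -0.15 without replicate 2 and -0.17 without replicate 4. For the 7th day it was -0.076, with -0.16 without replicate 1, -0.14 without replicate 3, -0.0085 without replicate 4, and 0.059 over probes with a value on all 4 arrays. No test was made of a score over the members.

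**Figure D5:**
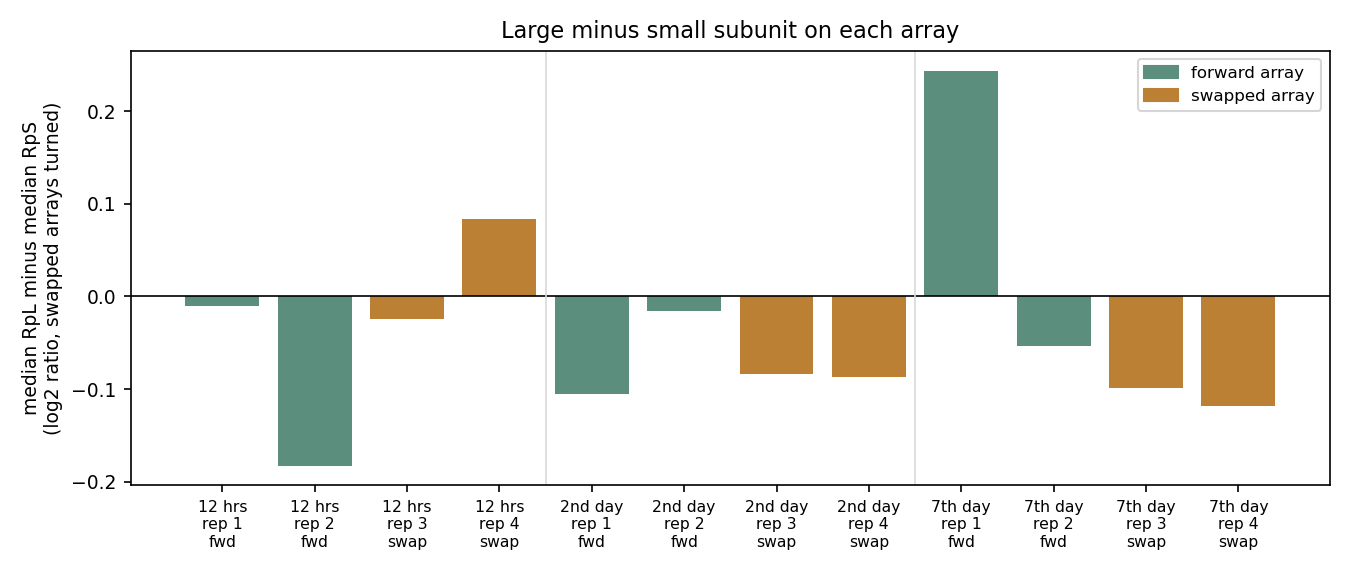
Median log2 ratio of RpL probes minus that of RpS probes (swapped arrays turned) on each of the 12 arrays, over probes with a value on at least 3 arrays of the time point. Bars are single arrays, green for forward and brown for swapped. The difference is below 0 on all 4 arrays of the 2nd day, and above 0 on 1 array of each other time.

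No member passed the test of a difference between time points. In 1 limma fit over the 12 arrays 0 of 22 members passed for the 2nd day minus 12 hrs, 0 of 11 for the 7th minus the 2nd day and 0 of 11 for the 7th day minus 12 hrs, in both readings. Turned, the background was 0% but for 0.0403% lower in the 7th minus the 2nd day. As deposited it was 0% but for 0.0403% lower in that contrast and 0.225% lower in the 7th day minus 12 hrs. Turned, the 2nd day was below 12 hrs for 19 of 22 members, with a median difference of -0.16, against -0.15 and 75% of all probes. The largest were RpL32 probe 9 at -0.59 (SE 0.23, adjusted p = 0.752) and RpS15Ab probe 2 at -0.51 (SE 0.29, adjusted p = 0.752), both of which had an outlying high array at 12 hrs. The 7th day was above the 2nd for all 11 members tested, with a median difference of 0.25, against 0.28 for all probes, of which 9.95% were below 0. As deposited the corresponding medians were 0.021, against -0.10 for all probes, and -0.18, against -0.094.

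A part of the members could not be tested. RpS5b and RpS10a are copies that in flies are known mainly from the germ line. RpS5b was at 0.54 and 0.071 on 2 arrays of 12 hrs, 0.13 on 1 of the 2nd day, and 0.53 and 0.17 on 2 of the 7th day, all above 0 when turned. RpS10a was measured only on replicate 1 of the 7th day, at -0.38, as was RpLP1, a protein of the stalk, at -0.40. RpS20 was at -0.55 on 1 array of 12 hrs, at 0.71 and -0.064 on the 2nd day and at 0.058 and 0.24 on the 7th day. RpL29 was tested at 12 hrs (0.20 ± 0.16) and the 2nd day (-0.066 ± 0.10), and had 0.33 and 0.58 on 2 arrays of the 7th day. RpL24-like, the third gene with an assembly factor as its yeast counterpart, was tested at each time, with 0.15 ± 0.24, 0.0024 ± 0.18 and 0.22 ± 0.51.

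Other genes of translation were set beside the family. Of 18 initiation factor genes on the array, 14 probes of 13 genes were tested at 12 hrs, and 0 passed in limma in either reading. Of these probes 12 had a mean above 0 turned (background 64.4%) and 4 as deposited (background 50%), and their median was 0.13 turned. On the forward arrays 6 of 13 were above 0 (background 64.7%), with a median of -0.003, against 0.079 for all probes. On the 2nd day 2 of 15 were above 0 turned (background 32%), and 0 passed over 4 arrays in either reading. The ribosomal protein probes had a median of 0.017 on that day, the initiation factor probes -0.094 and all probes -0.078, turned. As deposited these medians were -0.024, -0.048 and -0.10, with 5 of 15 initiation factor probes above 0 (background 29.5%). In that reading both groups thus lay above all probes. On the forward arrays the medians were -0.029, -0.20 and -0.20. With the forward arrays of that day alone, 6 of 14 initiation factor probes were lower and 0 higher at an adjusted p under 0.05 (background 33.3% lower and 7.43% higher). On these 2 arrays the scaffold gene eIF4G1 was lower with both its probes, at -0.60 (adjusted p = 8.22e-05 in limma) and -0.43 (adjusted p = 0.00541), as was the poly(A) binding protein gene pAbp at -0.56 (adjusted p = 0.000242). These calls, made with the variance shared by all probes, were lost over 4 arrays. There eIF4G1 was at -0.28 (adjusted p = 0.55 in limma) and -0.32 (adjusted p = 0.50) turned, and pAbp at -0.26 (adjusted p = 0.55).

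The elongation and termination factors had fewer probes, 3 at 12 hrs and 4 at the later times, and 0 passed over 4 arrays in either reading. Turned, 3 of 3, 0 of 4 and 4 of 4 means were above 0 (background 64.4%, 32% and 79.6%). Their medians were 0.11, -0.076 and 0.39, against 0.068, -0.078 and 0.16 for all probes. On the 2nd day's forward arrays 1 of 4 of these probes was called lower (background 33.3%), with the variance shared by all probes. It was that of eEF1delta, a subunit of the exchange factor of elongation, at -0.34 (adjusted p = 0.0334 in limma). Over 4 arrays turned it was at -0.19 (adjusted p = 0.593 in limma). As deposited the medians were 0.036, -0.028 and -0.29, against 0.00025, -0.10 and -0.13 for all probes.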

How the data were processed

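RNA of fly heads on PTZ and on NF was compared on 12 arrays. The authors quantified spots in GenePix Pro 6.0, normalised ratios in Acuity 4.0, kept spots by their intensity, saturation, flags and distance from background, and deposited log2 ratios. The centre of each array is that of their normalisation, and the direction on swapped arrays stays unknown. The number of arrays limits the precision.

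From these, the spots of a probe were averaged. Of 27648 spots 15116 had 1 gene name, 102 several and 12430 none here. Of 7558 named probes, 7449 were matched to current symbols of the Release 6 assembly. Probes with values on at least 3 of 4 arrays were tested with limma 3.58.1 in R 4.3.3 (2-sided, Benjamini-Hochberg, threshold 0.05), tested on simulated data. Tables were handled in Python 3.11.15. SAM in its one-class form, with a false discovery rate of 0.2, was an alternative, after SAM 3.0 of the methods. Other alternatives were centring, scaling, subtraction of neighbouring probes, a dye coefficient, a joint fit, other minimum numbers of arrays, gene averages, spot pairs, leaving out arrays, a replicate block and forward arrays only.

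Members and lists were chosen with earlier results of these data known. Named were probes past the threshold in any fit, the 5 highest and 5 lowest means per time point, members with several probes or near copies, and a few translation factors. Rrp1 and eIF5A were taken off the lists of biogenesis and initiation factors after values were seen. Rrp1 was a wrong entry there, and eIF5A was a double entry, kept among the elongation factors as eEF5. No sequence is shown.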

Additional observations from a re-analysis of the deposited data

Results flagged for a closer look

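Among 51 groups of 4 arrays, 4 held a value far from the other 3, by Dixon's test at the 5% level. With this test chance flags about 1 in 20 groups. The groups were those of member probes with 4 values, of the median of the members and of the subunit difference. All 4 flagged groups were of member probes. Of these 3 were on replicate 3 at 12 hrs, turned. RpS15Ab probe 2 was at 1.51 there, with 0.24, 0.16 and 0.19 on the other arrays. RpL32 probe 9 was at 0.86, with 0.30, 0.33 and 0.28. RpL24-like was at 0.50, with 0.056, -0.022 and 0.068. On replicate 3 of the 2nd day RpS12 probe 1 was at 0.54, with -0.27, -0.26 and -0.23 on the other arrays. Replicate 3 at 12 hrs had an SD of 0.61 over all probes, the widest of the 12 arrays, and is 1 of those whose labels contradict themselves. The part of either in these values was not tested.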

How the results depend on the processing

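Member calls (0 over 4 arrays at each time) were 1 at 12 hrs and 4 on the 2nd day with forward arrays only, where 107 and 2022 of all probes passed. At both times the 2 forward arrays gave all probes the same variance in limma. With a dye coefficient 0 of 22 members passed on the 2nd day, where 976 of all probes passed. SAM at a false discovery rate of 0.2 called 10 members higher at 12 hrs (background 22.5%) and 1 lower on the 2nd day (background 26.7%). As deposited, an alternative added after the data were seen, it called 10 on the 2nd day, of which 9 were lower (background 50%). Without replicate 3 of the 2nd day 1 of 24 members passed, where 59 of all probes passed, so that leaving out single arrays gave 0 to 1. It was RpL32 probe 3 (mean 0.96, adjusted p = 0.0397 in limma, 2 arrays). This probe had no value on replicate 3, and was tested because 2 arrays sufficed in that setting. As deposited its 2 values were 1.09 and -0.82, the latter from spots at -0.321 and -1.325. With at least 2 of 4 arrays needed and no array left out, 0 members passed on that day. The median of the members at 12 hrs was -0.019 as deposited and 0.12 with neighbouring probes subtracted. On the 2nd day (0.017) it was 0.095 with arrays centred, 0.0998 with neighbours subtracted, 0.056 with probes of a gene averaged and 0.0066 over probes on all 4 arrays. On the 7th day (0.23) it was 0.072 centred, 0.076 with neighbours subtracted and 0.39 on all 4 arrays. The difference of subunit medians on the 2nd day, -0.0995, was 0.032 as deposited, -0.053 on forward arrays and -0.17 to -0.079 without single arrays. It was -0.080 with gene averages and -0.079 with neighbours subtracted, both smaller than their SD. On the 7th day it was -0.076, against 0.22 as deposited (SD 0.12) and 0.13 on forward arrays (SD 0.37). Without single arrays it was -0.16 (SD 0.033, without replicate 1) to -0.0085. It was -0.011 centred, -0.02 with neighbours subtracted, -0.024 with gene averages and 0.059 on all 4 arrays. At 12 hrs it was -0.010, and -0.12 to 0.023 without single arrays. The cause was not tested. Leaving out the -like genes or the RpL32 probes, also added later, moved medians and subunit differences by less than 1 SD, though the subunit difference became 0.020 at 12 hrs without the -like genes and 0.012 on the 7th day without RpL32. Replicate numbers did not pair the arrays (same-number correlations of -0.069 to 0.18), and a replicate block gave 0 member calls in all 3 contrasts.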

Other observations

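Ribosome biogenesis factors, which work in the nucleolus and are not part of the finished ribosome, had 19 probes of 17 genes on the array, of which 5, 6 and 8 were tested in the order of time. Of these 0 passed over 4 arrays in either reading. The medians, turned, were 0.065, -0.072 and 0.20, against 0.068, -0.078 and 0.16 for all probes.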
